A study of Mus musculus with 6 samples.

Results

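The transcripts of 8 genes for replication-independent histone variants were followed in N2a cells after knockdown of NPM1. The genes were taken by name and were *H3f3a* and *H3f3b* (both for H3.3), *H2afz* and *H2afv* (both for H2A.Z), *H2afx* (H2A.X), *H2afy* (macroH2A1), and the linker histone genes *H1f0* (H1.0) and *H1fx* (H1.X). All 8 were found among the 26656 genes listed, 3 by symbol and 5 by gene ID, because the tables carry the newer symbols H2az1, H2az2, H2ax, Macroh2a1 and H1f10 for *H2afz*, *H2afv*, *H2afx*, *H2afy* and *H1fx*. All 8 also passed the filter on low values.

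N2a is a mouse neuroblastoma cell line, annotated as wild type in both conditions. In 3 libraries (NPM1 KD) the cells had received the plasmid pLKO.1-shNpm1, which encodes 1 shRNA against *Npm1*, and in 3 libraries (CTR) the non-target plasmid pLKO.1-shCTR. RNA was taken 72 h after transfection, with puromycin at 9.3 µg/ml from 24 h on in the knockdown experiments, and long-read cDNA libraries were read by nanopore sequencing. The study design counts 3 biological replicates per condition and the treatment protocol 2, so the spread between these libraries may in part be technical.

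Most histone genes are transcribed in S phase, and their mRNAs end in a stem-loop in place of a poly(A) tail. The genes described here are also used outside S phase and make polyadenylated mRNA, which cDNA libraries primed at the poly(A) tail can capture. Any mRNA of these genes without the tail could be missed, so their levels may cover only the polyadenylated part. Their proteins replace canonical histones at chosen places: H3.3 is deposited by HIRA at active genes and by DAXX and ATRX at heterochromatin, H2A.Z is placed beside promoters by SRCAP and EP400, H2A.X is phosphorylated around DNA breaks, macroH2A1 carries a large globular domain and marks silent chromatin, and linker histones close the nucleosome, with H1.0 best known from resting and differentiated cells. NPM1 is a nucleolar protein that also acts as a histone chaperone.

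H3.3 and H2A.Z are each encoded by a pair of genes whose products are identical or nearly so, which raises the question whether reads can be told apart between the partners. The first 90 coding bases (5′ to 3′, from the ATG) of each are shown for that reason, with bases that differ between the partners in capitals, from GENCODE M21 transcripts.
H3f3a: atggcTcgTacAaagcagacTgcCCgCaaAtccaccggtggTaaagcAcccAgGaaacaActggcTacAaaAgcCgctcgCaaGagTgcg
H3f3b: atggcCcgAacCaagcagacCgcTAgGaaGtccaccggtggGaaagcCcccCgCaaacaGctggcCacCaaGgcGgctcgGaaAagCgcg
H2afz: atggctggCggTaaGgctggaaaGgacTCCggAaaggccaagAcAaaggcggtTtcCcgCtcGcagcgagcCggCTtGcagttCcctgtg
H2afv: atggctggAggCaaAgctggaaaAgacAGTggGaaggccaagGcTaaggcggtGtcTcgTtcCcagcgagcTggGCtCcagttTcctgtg
Over the whole coding sequence of 411 bases, *H3f3a* and *H3f3b* differed at 95 bases (76.9% identity), of which 81 lay at the third codon position, 14 at the first and 0 at the second. *H2afz* and *H2afv* differed at 81 of 387 coding bases (79.1% identity), 70 of them at the third codon position. The longest stretch without a difference was 23 bases for the H3.3 pair and 14 bases for the H2A.Z pair. A long read over the coding part of these transcripts therefore crosses many positions that separate the partners. Processed pseudogenes of these genes were not examined.

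The authors' mean normalized count over the 6 libraries placed the members over a wide range. It was 658 for *H3f3b*, 620 for *H2afz*, 524 for *H3f3a*, 207 for *H2afy*, 177 for *H1f0*, 73.4 for *H2afv*, 19.3 for *H2afx* and 17.2 for *H1fx*, against a median of 28.4 over the tested genes. Per kilobase of transcript, with the median length of the protein-coding transcripts in the GENCODE M21 basic set, *H2afz* was highest with a mean normalized count of 765 per kb, followed by *H3f3a* with 590 and *H3f3b* with 292. *H2afy* (104 per kb), *H1f0* (86.2) and *H2afv* (68.2) formed the middle, and *H1fx* (14.1) and *H2afx* (13.9) were lowest. The mean count has no value per library, but between libraries a member's rlog value, deposited as a whole number, moved by at most 1. The rounding can hide a larger move, so 1 serves below as a guide and not as a bound. Neighbours in this order that lay closer than 1 on the log2 scale of the per-kb level were *H2afz* and *H3f3a* (0.38), *H2afy* and *H1f0* (0.27), *H1f0* and *H2afv* (0.34), and *H1fx* and *H2afx* (0.02), and their order is not resolved here. The step from *H3f3a* to *H3f3b* was 1.01 and depends on the transcript used, since the per-kb level of *H3f3a* runs from 184 with its longest to 724 with its shortest annotated transcript. A long read can cover a whole transcript, and division by length would then place long transcripts too low, so the count without it is given as well. By that count *H3f3b* was highest, so the order of *H2afz*, *H3f3a* and *H3f3b* depends on the measure.

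**Figure D1:**
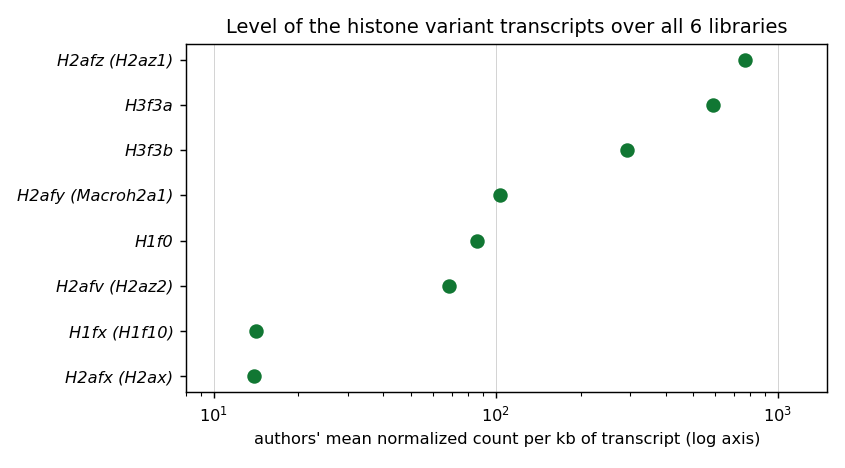
The authors' mean normalized count per kb of transcript for each of the 8 histone variant genes, on a log axis. The points span from 13.9 for *H2afx* to 765 for *H2afz* and have no error bars because the deposited mean covers all 6 libraries.

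Expression was then compared between NPM1 KD and CTR. The values are regularized log (rlog) values, normalized log2 expression levels of a gene in a library, which had been deposited as whole numbers wherever their size was 1 or more. Libraries with the same value can therefore differ by up to 1 on the log2 scale, and a difference d between group means stands for a value between d − 1 and d + 1. A gene counted as changed at an adjusted p below 0.05 in limma's moderated test over 5752 tested genes. The standard errors given are moderated with the variances of all tested genes, so they do not measure the spread of a single gene. *H3f3a*, with an SD of 0 in both conditions, had 0.33, and *H2afy*, with an SD of 0.58 in both, had 0.35. The p-values from limma rest on these errors. *Npm1*, the target, had an rlog value of 10 in each CTR library and of 8 in each NPM1 KD library (log2 difference −2 with a standard error of 0.33, limma adjusted p = 3.23e-06). By the same test 4 genes rose and 24 fell. Any pair of libraries of the same condition differed at 1217 to 1575 of the tested genes, and any pair across conditions at 1567 to 2062.

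None of the 8 histone variant genes passed the threshold upon NPM1 KD in limma, against 0.487% of all tested genes (28 of 5752), of which 0.0695% rose and 0.417% fell. At an unadjusted p below 0.05 there was 1 of 8 (12.5%), in the lower direction, against 14.1% of all tested genes (8.07% lower and 6.07% higher). With both directions together, the share among the members was thus no larger than among all genes. This member was *H1f0*, for the linker histone H1.0, with an rlog value 1 lower in every NPM1 KD library than in every CTR library. The other 7 genes had log2 differences between −0.33 and 0.33. A difference below 0 was found for 2 members (27.4% of the tested genes) and a difference above 0 for 1 member (24.6%). One value in all 6 libraries was found for 4 of the 8 members (50%, against 40.2% of the tested genes). The median log2 difference was 0 over the members and 0 over the tested genes.

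*H1f0* (ENSMUSG00000096210) had an rlog value of 8 in the 3 CTR libraries and of 7 in the 3 NPM1 KD libraries. The groups did not overlap, which was the case for 5.60% of the tested genes, 3.41% with lower and 2.19% with higher values upon NPM1 KD. A difference of −1 or lower was found for 3.79%. The log2 difference was −1 with a standard error of 0.35 (3 libraries per condition, limma unadjusted p = 0.00389 and adjusted p = 0.0791), and the rounding leaves a value between −2 and 0. An exact permutation test over the 6 libraries gave p = 0.1 (two-sided), the smallest that 3 against 3 allow. The call depended on the fit: without the limit on the variance the adjusted p from limma was 3.58e-11, and without the intensity trend it was 0.0304. When 1 library at a time was left out, the log2 difference remained −1 and the adjusted p from limma was 0.182 to 0.248. The same pattern of values, relative to the lowest of the 6, was found in 172 other tested genes (2.99%), of which *Canx*, *Arl3* and *Itgb1* were nearest in the authors' mean normalized count (179, 181 and 181).

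*H1fx* (ENSMUSG00000044927), the other linker histone gene, had an rlog value of 4 in all 6 libraries. Its log2 difference of 0 (standard error 0.35, adjusted p = 1 from limma) stands for a value between −1 and 1. It was expressed far below *H1f0*, with 14.1 against 86.2 mean normalized counts per kb.

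**Figure D2:**
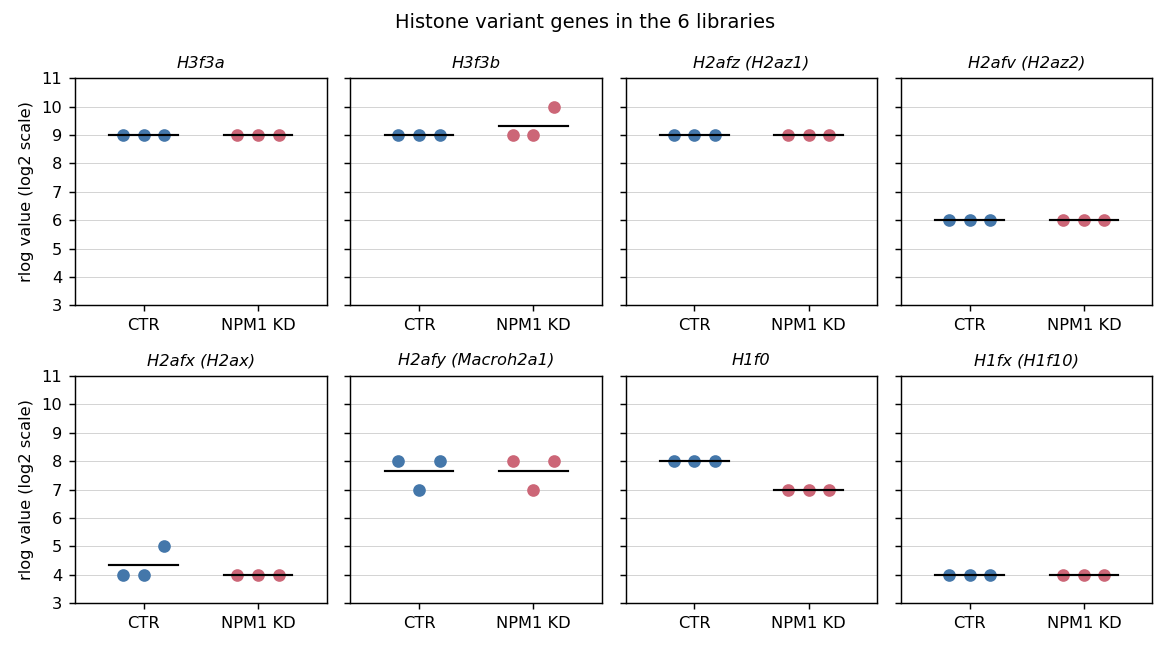
The rlog value (log2 scale) of each of the 8 histone variant genes in the 3 CTR (blue) and 3 NPM1 KD (red) libraries, ordered by replicate number within a condition, with the group mean as a line. *H1f0* is at 8 in every CTR and at 7 in every NPM1 KD library, while the groups of the other 7 genes share at least 1 value.

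The H3.3 genes were among the high members and showed no separation between conditions. *H3f3a* (ENSMUSG00000060743) was at 9 in all 6 libraries (log2 difference 0, standard error 0.33, adjusted p = 1 from limma). *H3f3b* (ENSMUSG00000016559) stood at 9 in every CTR library and read 9, 9 and 10 in NPM1 KD replicates 1, 2 and 3 (log2 difference 0.33, standard error 0.33, adjusted p = 0.713 from limma). A single NPM1 KD library thus made the difference of *H3f3b*, and without that replicate it was 0. Its pattern of values was shared by 56 other tested genes (0.974%), and the nearest in mean normalized count, *Atp5pb* (331), *Rpl12* (1410) and *Eif4a1* (171), were still far from its 658. The difference *H3f3a* minus *H3f3b* within a library was 0 in 5 libraries and −1 in NPM1 KD replicate 3, so that the balance of the pair moved by −0.33 upon NPM1 KD (exact permutation test, two-sided, p = 1, where 0.1 is the smallest possible).

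The H2A.Z genes had one value each. *H2afz* (ENSMUSG00000037894) was at 9 and *H2afv* (ENSMUSG00000041126) at 6 in all 6 libraries, with log2 differences of 0 (standard error 0.33 and 0.34, adjusted p = 1 from limma for both). *H2afz* exceeded *H2afv* by 3 on the rlog scale in every library, so the balance of the pair did not move in the rounded values. For each gene a change of up to 1 in either direction on the log2 scale would not be seen if it stayed within the rounding.

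*H2afx* (ENSMUSG00000049932), the gene of the H2A form that is phosphorylated at DNA breaks, was at 4, 4 and 5 in CTR replicates 1, 2 and 3 and at 4 in the 3 NPM1 KD libraries. Its log2 difference was −0.33 (standard error 0.34, adjusted p = 0.713 from limma), and it was 0 without CTR replicate 3. The pattern was shared by 98 other tested genes (1.70%), among which *Dck* (19.3), *Ckap4* (19.2) and *Ttc13* (19.3) were nearest in mean normalized count.

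*H2afy* (ENSMUSG00000015937), which encodes macroH2A1, was at 8, 7 and 8 in CTR replicates 1, 2 and 3 and again at 8, 7 and 8 in NPM1 KD replicates 1, 2 and 3. The spread within each condition (SD 0.58, n = 3) exceeded the difference between them, which was 0 (standard error 0.35, adjusted p = 1 from limma). Of the other tested genes, 39 (0.678%) had this pattern, with *Acp1* (188), *Ik* (119) and *Hspa9* (404) nearest in mean normalized count. The gene has 2 protein-coding transcripts of 2046 and 1933 bases in the GENCODE M21 basic set, and the values per gene do not separate them.

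**Figure D3:**
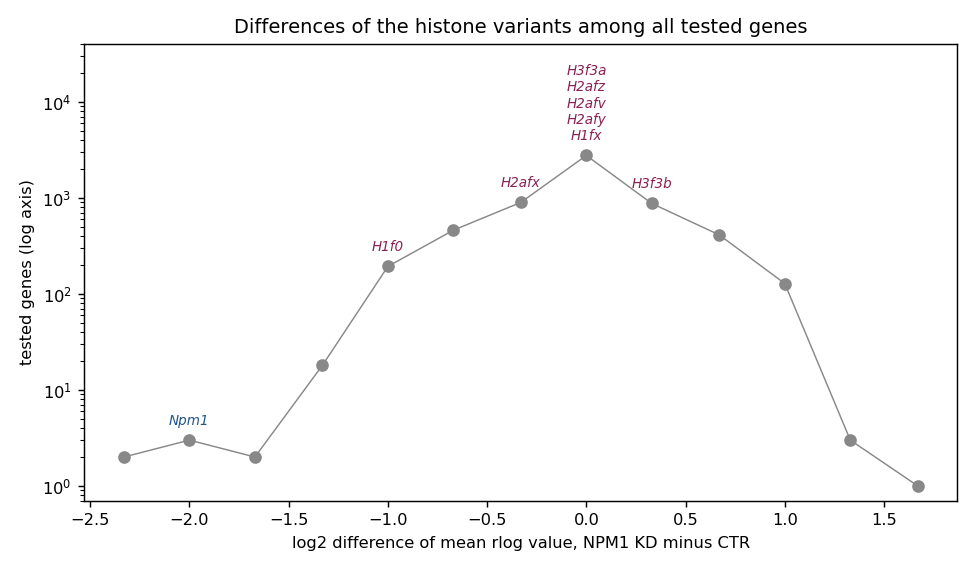
Number of tested genes (log axis) at each log2 difference between mean rlog values, NPM1 KD minus CTR, with the 8 histone variant genes and *Npm1* written at their differences. Of the members, 5 lie at 0 with 2762 tested genes, *H2afx* and *H3f3b* lie 0.33 to either side, and *H1f0* lies at −1, where 193 tested genes lie.

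Promoter sequences are given for *H1f0*, because its groups did not overlap, and for the H3.3 pair, because these genes make the same protein from different promoters. The windows run from 250 bases before to 50 bases after the start site in RefSeq (GRCm38.p6). RefSeq windows were found for 7 of the 8 members. Capitals mark matches on either strand to CCAAT, to TATAA and to AAACACA, the H1 box of linker histone promoters, and none of these matches overlapped another.
H1f0, chr15:79027962-79028261, plus strand: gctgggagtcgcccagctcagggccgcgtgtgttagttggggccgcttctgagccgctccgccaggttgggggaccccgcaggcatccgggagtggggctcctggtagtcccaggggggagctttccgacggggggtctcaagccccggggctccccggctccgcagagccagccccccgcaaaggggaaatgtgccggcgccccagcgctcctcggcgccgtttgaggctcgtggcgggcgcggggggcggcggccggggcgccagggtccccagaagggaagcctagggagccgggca
H3f3a, chr1:180813556-180813855, minus strand: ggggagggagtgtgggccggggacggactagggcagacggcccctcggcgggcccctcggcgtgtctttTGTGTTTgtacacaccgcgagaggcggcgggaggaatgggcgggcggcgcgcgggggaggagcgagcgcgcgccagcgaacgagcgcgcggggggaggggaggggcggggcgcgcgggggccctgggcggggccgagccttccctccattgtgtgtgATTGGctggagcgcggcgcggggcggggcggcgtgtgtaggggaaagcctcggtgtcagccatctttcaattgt
H3f3b, chr11:116024455-116024754, minus strand: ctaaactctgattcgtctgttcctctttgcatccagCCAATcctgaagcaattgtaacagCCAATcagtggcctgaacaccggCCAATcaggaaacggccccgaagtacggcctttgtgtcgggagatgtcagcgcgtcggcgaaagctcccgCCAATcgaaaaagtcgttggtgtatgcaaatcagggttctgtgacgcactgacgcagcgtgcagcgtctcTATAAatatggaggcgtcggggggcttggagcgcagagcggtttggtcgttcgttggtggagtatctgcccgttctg
The *H3f3b* window held 4 matches to CCAAT and a TATAA at −27 to −23 from the start site. The *H3f3a* window held 1 match to CCAAT and 1 to AAACACA, both on the strand opposite to the gene, and no TATAA. Matches to CCAAT were also found in the windows of *H2afz* (3) and *H2afv* (4). None of the 3 motifs was found in the windows of *H1f0*, *H1fx* or *H2afy*. Of 32851 RefSeq windows of this length, 37.4% held CCAAT, 24.9% TATAA and 7.18% AAACACA. The share of G and C was 75.0% in the *H1f0* window, 74.0% in that of *H3f3a* and 55.0% in that of *H3f3b*.

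The other histone genes were looked at next, most of them replication-dependent genes whose mRNA lacks a poly(A) tail. Of 72 listed, 13 passed the filter on low values, and the other 59 had a median mean normalized count of 1.34 and at most 8.63. Among those that passed, the replication-dependent *H2ac24* (99.1) and *H2ac23* (98.7) had higher mean normalized counts than the member *H2afv* (73.4). None of the 13 passed the threshold in limma, against 0.487% of all tested genes, and none had an unadjusted p below 0.05, against 14.1%. Their log2 differences ran from −0.33 to 0.33, with 3 above, 2 below and 8 at 0. *Cenpa*, the H3 form of centromeres, stood at 6 in every CTR library and read 5, 6 and 6 in NPM1 KD replicates 1, 2 and 3 (log2 difference −0.33, adjusted p = 0.713 from limma). *H2afj* (H2aj), a further polyadenylated H2A gene, was at 6, 7 and 7 in CTR and at 7 in the 3 NPM1 KD libraries (log2 difference 0.33, adjusted p = 0.713 from limma). *H2afy2* (Macroh2a2), for macroH2A2, did not pass the filter, with a mean normalized count of 1.93 against 207 for *H2afy*. Many replication-dependent genes of one histone type are near-identical copies, between which reads may have been split or shared, which was not tested. *H2ac23* and *H2ac24* had the same 6 rlog values, but equal values are frequent after rounding and cannot show shared reads.

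Of 31 factors that deposit, exchange or modify these variants, 19 were tested. In limma 0 of the 19 passed the threshold, against 0.487% of all tested genes. An unadjusted p below 0.05 was found for 2 of the 19, against 14.1% of all tested genes. The log2 differences ran from −0.67 to 0.67 with a median of 0. The 2 with an unadjusted p below 0.05 were the paralogous H3 chaperones *Asf1a* and *Asf1b*. *Asf1a* stood at 4 in every CTR library and read 5, 5 and 4 in NPM1 KD (log2 difference 0.67, standard error 0.33, adjusted p = 0.33 from limma). *Asf1b* was at 4, 5 and 5 in CTR and at 4 in the 3 NPM1 KD libraries (log2 difference −0.67, standard error 0.33, adjusted p = 0.33 from limma). In both genes the groups shared a value. For H3.3, *Atrx*, *Dek*, *Ubn2* and *Cabin1* were tested as well and differed by at most 0.33 in size, while *Hira*, *Ubn1* and *Daxx* did not pass the filter. Of 7 tested H2A.Z factors, *Vps72*, *Ruvbl1*, *Yeats4* and *Ep400* had one value each in all 6 libraries, and *Znhit1*, *Anp32e* and *Ruvbl2* had log2 differences of 0.33, −0.33 and −0.33. Of 5 tested general chaperones, *Nap1l1* (8), *Nasp* (6) and *Ssrp1* (5) had one rlog value, and *Nap1l4* and *Set* had log2 differences of −0.33 each. One value in all libraries was found for 9 of the 19 factors, against 40.2% of the tested genes.

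Genes of the cell cycle and of neuroblastoma identity were set beside *H1f0*, since H1.0 is known to vary with both proliferation and differentiation. Of 11 tested S phase genes and 8 tested G2/M genes, 0 passed the threshold in limma, against 0.487% of all tested genes. An unadjusted p below 0.05 was found for 1 and 2 of them, against 14.1% of all tested genes. The median log2 difference was 0 and −0.17. *Tyms* was the S phase gene with the largest difference in size (−0.67, adjusted p = 0.33 from limma). The proliferation marker *Mki67* was at 6 in every CTR and at 5 in every NPM1 KD library, and *Top2a* at 8 and 7, each with an adjusted p of 0.0791 from limma. *H1f0* had the same pattern, as did 172 other tested genes (2.99%), so the equal adjusted p does not link these genes. The other G2/M genes ran from −0.67 to 0.33 in log2 difference, with *Plk1* at −0.67, *Cdk1* at −0.33, *Ccnb2*, *Aurka* and *Aurkb* at 0 and *Ccnb1* at 0.33. *Slbp*, whose product binds the stem-loop of replication-dependent histone mRNA, was at 5 in all 6 libraries.

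Of 11 markers of sympathoadrenal neuroblastoma cells 7 were tested, and their median log2 difference was −1. The granin *Chgb* was at 8, 8 and 7 in CTR and at 6 in the 3 NPM1 KD libraries (log2 difference −1.67, standard error 0.35, adjusted p = 0.0011 from limma). *Chga*, the other granin, stood at 7 in every CTR library and read 5, 6 and 6 in NPM1 KD (log2 difference −1.33, standard error 0.34, adjusted p = 0.026 from limma). Both fell by this test, but *Chgb* did not pass the threshold when CTR replicate 1 was left out (limma adjusted p = 0.112), nor when CTR replicate 2 was (0.113), and *Chga* did not pass it without any one of the 6 libraries (0.0704 to 0.248). *Chga* also missed it with the replicate number as a block (limma adjusted p = 0.167) and without the filter on low values (0.0678), and both genes missed it without the limit on the variance (*Chga* 0.208, *Chgb* 0.0957). *Stmn2*, *Gap43* and *Tubb3* were each 1 lower in every NPM1 KD library, with an adjusted p of 0.0791 from limma, and *Hand2* had a log2 difference of 0.33. *Th* and *Dbh*, for the enzymes of catecholamine synthesis, did not pass the filter (mean normalized counts of 2.43 and 3.55). Of the 7 tested markers, 5 had a log2 difference below 0, 1 a difference above 0 and 1 a difference of 0. The lower values were thus not shared by all tested markers. The part of these genes in the difference of *H1f0* was not tested, and a change per cell cannot be told apart from a change in the mixture of cells. Of 17 markers of fibroblasts, macrophages or microglia, astrocytes and endothelial cells, 11 were listed at 0 in all 6 libraries and none was tested.

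**Figure D4:**
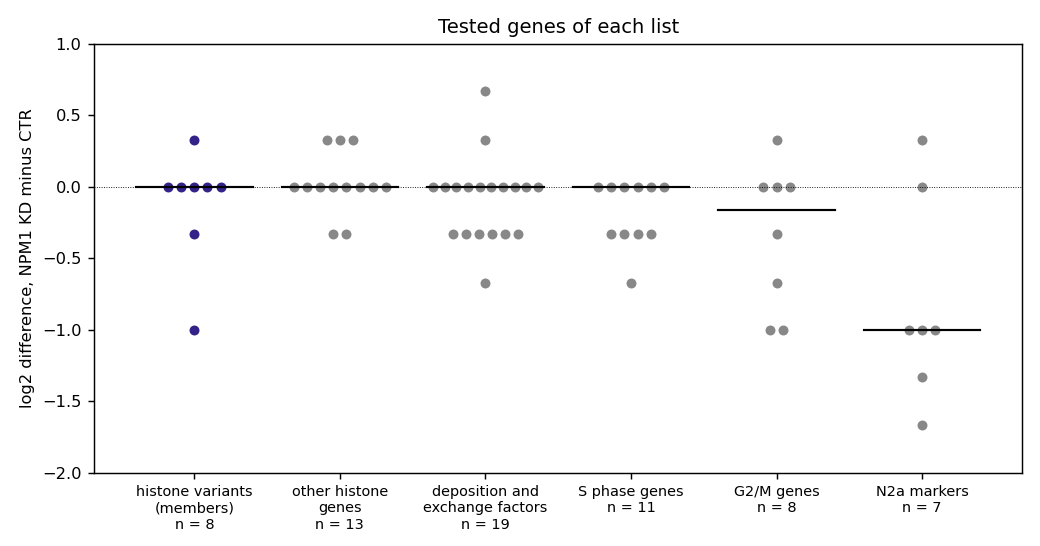
The log2 difference of mean rlog values, NPM1 KD minus CTR, for each tested gene (point) of the histone variants and of the other gene lists, with the median of each list as a line. The medians lie at 0 for the histone variants, the other histone genes, the deposition and exchange factors and the S phase genes, at −0.17 for the G2/M genes and at −1 for the N2a markers.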

How the data were processed

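Long-read cDNA libraries (SQK-PCB109, nanopore) of N2a cells comprised 3 CTR and 3 NPM1 KD libraries, grouped and numbered by their titles. Per the labels, the authors used minimap2, featureCounts, DESeq2 and the build GRCm39. Versions, annotation and strand setting are not given in the sources used here. The authors deposited rlog values, a log2-scale score in which library size is corrected and genes with few reads are pulled towards their own mean, and, in a second table, the mean normalized count per gene. The remaining columns of that table hold the authors' own comparison (fold change, its error, statistic, p-values) and were not used. The tables give no reads per library, so the depth of each library is unknown, and 841220 is the sum of the mean normalized counts.

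Rows that repeated a gene ID (257 of 26913) were dropped. Of values of size 1 or more, 0 were not whole. For 2310 genes with one value in all libraries, log2 of the mean normalized count lay within 0.5 of that value in 100.0% and differed by 0.014 at the median, as after rounding to the nearest whole number. Genes entered the test when their mean rlog reached log2 of 10, and limma 3.58.1 was run under R 4.3.3 (lmFit, eBayes with an intensity trend, two-sided, Benjamini-Hochberg adjustment over all genes tested). Variances within groups below 1/12, which rounding adds, were raised to that value. The fit was tested on simulated rounded data, where more calls were false without this limit than with it and where, at the smallest spread simulated, calls with the limit were also false more often than the threshold allows. The members, the gene lists and this fit were chosen with earlier results of these data known. Named were the members, *Npm1*, *Cenpa*, *H2afj*, *H2afy2*, called genes of each list or else that with the largest difference, and up to 3 genes sharing a member's pattern. Other listed genes were picked as examples after their values were seen. The values of 1 listed marker are not reported here.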

Additional observations from a re-analysis of the deposited data

How the results depend on the processing

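The number of histone variant genes called lower was 0 and became 1 (*H1f0*) without the variance limit and 1 without the intensity trend. It was 0 with the stricter filter (mean rlog of at least log2 of 20, which *H2afx* and *H1fx* did not pass), without a filter, with the replicate block, and when any 1 library was left out. No member was called higher in any of these. Scaling the libraries to a common median tested nothing, because the median was 5 in each library and no value changed. Of 97 single-gene values under the other alternatives (8 members and *Npm1*), 95 kept their side of the threshold and the 2 others were those of *H1f0*. The 4 members with one value in all libraries could not cross the threshold in any of them, so the tally says little about stability. Listed genes called lower numbered 2, against 5 without the variance limit (neither *Chga*, limma adjusted p = 0.208, nor *Chgb*, 0.0957, among them), 7 without the intensity trend, 1 without a filter (*Chga* lost, 0.0678), 1 with the replicate block (*Chga* lost, 0.167) and 0 to 1 when 1 library was left out. Over all tested genes 4 were called higher and 24 lower, against 123 and 178 without the variance limit, 132 and 218 without the intensity trend, 1 and 10 without a filter, 1 and 7 with the replicate block, and 0 to 2 and 5 to 9 without 1 library. The cause was not tested beyond the construction of these fits. Between same-numbered libraries the deviations from the group means correlated with r of 0.009, 0.000 and 0.03. Between differently numbered libraries r ran from −0.036 to 0.025. Rounding to whole numbers can hide a small shared shift, so these values cannot show whether same-numbered libraries came from a shared batch. The permutation tests of the pair balances could not pass the threshold with 3 libraries against 3 or fewer, so they say nothing about stability. The rounding limits each member to differences known only within 1 on the log2 scale, and the shrinkage of rlog values can make differences of genes with few reads smaller.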
